A study of Mus musculus with 8 samples.

Results

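The genes described here encode the factors that start, extend and end protein synthesis in the cytosol, with their nearest relatives by name. They were taken by gene symbol: every probe of the array whose platform symbol begins with Eif1, Eif2b, Eif2s, Eif3, Eif4, Eif5, Eif6, Eef1 or Etf1, or is Eef2, Gspt1 or Pabpc1. The kinases of eIF2 and eEF2 were left out of the members and are given further on as regulators. The rule took 93 of the 25697 probes on the array, for 55 of the 16593 genes with a symbol, and used no measured value. Of these, 73 probes for 44 genes were bright enough to be tested, and 72 of the 73 were called detected on all 8 arrays by the deposited detection p-value.

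Mouse macrophages were exposed to human IAPP in 4 wells and to rat IAPP in 4 other wells, each at 15 µM for 12 hours. IAPP, islet amyloid polypeptide or amylin, is a pancreatic hormone: the human form aggregates into amyloid, and the rat form, which differs in sequence, does not, so aggregation and peptide sequence cannot be told apart in this comparison. All wells held bone marrow-derived macrophages of C57BL/6 mice that had been raised in L929-conditioned medium and then kept without it before the peptide was given. No untreated wells are among the samples used here. The titles give the dose in µM, whereas 1 protocol field gives the same figure in mM. The labels do not assign wells to animals or to separate experiments, and p-values therefore rest on well-to-well spread, part of which may be technical.

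Total RNA was converted to biotin-labelled cRNA and hybridised to Illumina bead arrays of 1 colour. The mean raw signal per array was 1144 to 1368 on the human IAPP arrays, against 1523 to 1967 on rat IAPP replicates 1 to 3 and 1180 on rat IAPP replicate 4. The share of probes detected was 42.1 to 44.0% with human IAPP and 42.7 to 47.6% with rat IAPP. Rat IAPP replicate 4 stood apart from its group, with a mean correlation of 0.986 to the other rat IAPP arrays where the other 7 arrays each had 0.992 to 0.993 with their own group. Where leaving it out changes the call of a member, the value without it is given too. The 9 macrophage marker names looked up include older and newer names of the same gene (Emr1 and Adgre1, Lyzs and Lyz2). They matched 5 genes with a probe, and all 5 were detected on all 8 arrays. The summed raw signal was 137523 to 150190 with human IAPP and 155235 to 206864 with rat IAPP. Adgre1, Mertk and Fcgr1 fell with human IAPP and Itgam did not pass the test. The brightest Lyz2 probe lay above 60000 on all arrays, at the top of the scale, and could not show a change, while the dimmest of its 3 probes fell (difference -0.44, adjusted p = 0.010). All probes for the markers of B cells (4 probes), T cells (3 probes), dendritic cells (3 probes) and erythroid cells (1 probe) were undetected on all arrays. Of 6 probes for neutrophils and their precursors 3 were undetected throughout, and Elane, detected on 3 human IAPP arrays and 1 rat IAPP array, was higher by 0.44 (adjusted p = 0.0496). Of 5 fibroblast probes 3 were undetected throughout and both Col3a1 probes were detected on 1 array each. The part of such cells in the results was not tested. The arrays measured RNA of whole wells, so fewer cells of a type and less RNA per cell cannot be told apart.

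Translation begins when eIF2, carrying the initiator tRNA, joins the small ribosomal subunit together with eIF1, eIF1A, eIF3 and eIF5. The mRNA is brought in by the cap-binding eIF4E, the scaffold eIF4G and the helicase eIF4A, and the poly(A)-binding protein contacts the same scaffold from the other end of the message. eEF1A then delivers aminoacyl-tRNA, eEF2 moves the ribosome along, and the release factors eRF1 and eRF3 free the finished chain. Cells set the rate mainly through phosphorylation of eIF2, which blocks its recycling by eIF2B, and through the eIF4E-binding proteins, which mTORC1 switches off. Many elongation factors and some initiation factors are encoded by TOP mRNAs, whose first base is a C followed by a pyrimidine run and whose translation depends on mTORC1. An array reads the amount of mRNA and none of these steps in the protein.

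Promoter windows were available from RefSeq, build GRCm38.p6, for 32 of the 44 tested genes, in 43 windows that run from 250 bases before to 50 bases after an annotated start. Of 3 patterns searched in them, none of which the symbol rule used, the first is the E-box CACGTG, the palindromic site bound by MYC, USF and TFE3 among others, searched on both strands. It lay in the windows of 10 of the 32 genes (31.2%), and 8.09% of all 27025 genes in the table had it. Counted by windows the shares were 27.9% of the 43 and 7.15% of all 32851. Genes that rose, fell and did not pass the test all held it: 4 of 10, 3 of 9 and 3 of 13. A match is a description of letters and not a bound site. The windows below are shown because they hold the E-box, in capitals, in genes whose mRNA changed in each direction; the name gives the position of the motif relative to the annotated start.
Eif4e, -228, chr3:138527028-138527057, plus strand: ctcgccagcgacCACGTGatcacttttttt
Eif4e, -64, chr3:138527192-138527221, plus strand: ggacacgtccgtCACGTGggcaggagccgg
Eif4a1, -189, chr11:69672595-69672624, minus strand: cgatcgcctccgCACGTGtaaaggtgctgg
Eif1b, -24, chr9:120492570-120492599, plus strand: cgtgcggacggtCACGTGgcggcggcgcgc
Eef2, -43, chr10:81176576-81176605, plus strand: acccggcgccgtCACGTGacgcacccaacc
Eif3f, -68, chr7:108934335-108934364, plus strand: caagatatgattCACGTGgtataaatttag

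A TOP-like start was searched as a C followed by 4 bases that are each C or T, on the sense strand and beginning within 5 bases of the annotated start. It was found for 9 of the 32 genes (28.1%), against 21.2% of all genes. By call it was found for 1 of 10 genes that rose (Eif3b), 2 of 9 that fell and 6 of 13 that did not pass, and for 1 of the 4 genes with a window among the TOP mRNAs described further on. The CARE core TGATGNAA, searched on both strands because ATF4 binds elements that hold it, was in the window of 1 member, Eif2s3x (3.12%), against 4.51% of all genes. The windows that follow show the pyrimidine run in capitals for Eif3f and Eif3l, which fell, and for Eif2s3x, which did not pass the test, and the start of Eef2, a TOP mRNA in textbooks whose RefSeq start did not match the pattern.
Eif3f, chr7:108934405-108934434, plus strand: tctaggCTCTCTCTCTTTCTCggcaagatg
Eif3l, chr15:79075213-79075242, plus strand: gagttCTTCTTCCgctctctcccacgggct
Eif2s3x, chrX:94212632-94212661, minus strand: gagcattttCCTTTTCTCTCCgagcaagat
Eef2, chr10:81176621-81176650, plus strand: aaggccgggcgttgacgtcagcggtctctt

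Values below are log2 intensities after background correction and quantile normalisation, differences are human IAPP minus rat IAPP on that scale, and each gene is read by its brightest tested probe. A gene is said to have risen or fallen where limma's moderated test gave a Benjamini-Hochberg adjusted p under 0.05 over all tested probes. Of the 44 tested members 13 rose, 13 fell and 18 did not pass. That is 59.1% called, while 55.4% of all 7809 tested genes were called, so the share is near that of genes in general. By direction, 29.5% of the members rose and 29.5% fell, against 23.4% and 32.0% of all genes. The median difference was 0.01 for the members and -0.06 for all genes, and the median size of a difference was 0.36 for the members and 0.35 for all genes. As many members rose as fell, and rises and falls were found within the same complexes and between paralogues, which are described in turn. With at least a 2-fold difference 2 member genes passed the test, Eef1e1 and Eif4e, while 10.4% of all genes did. Without background correction the 2 differences were 1.00 and 0.39, so for Eif4e this size rests on the correction. Counted by probes, 19 of 73 rose and 21 fell (54.8%), against 54.4% of all 11451 tested probes, of which 24.5% rose and 29.9% fell. In 26 of the 44 members (59.1%) the human and rat IAPP arrays did not overlap, against 51.3% of all genes.

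**Figure D1:**
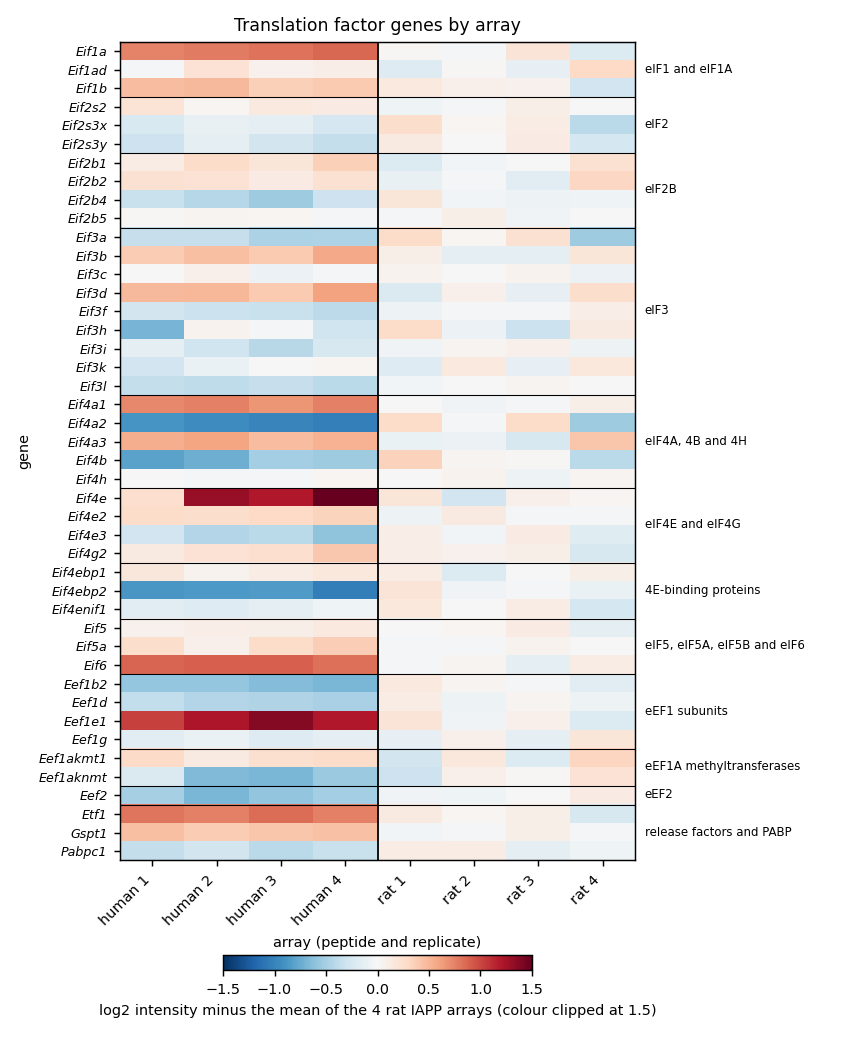
Each row is a tested translation factor gene, grouped by role, and each column is an array, with human IAPP replicates 1 to 4 on the left and rat IAPP replicates 1 to 4 on the right. Colour is the log2 intensity minus the mean of the 4 rat IAPP arrays, clipped at 1.5; Eef1e1, Eif6, Eif1a, Etf1 and Eif4a1 are red on all 4 human IAPP arrays and Eif4a2 and Eif4ebp2 are blue on all 4, whereas rat IAPP replicate 4 is paler or bluer than its group for Eif4a2 and Eif3a.

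**Figure D2:**
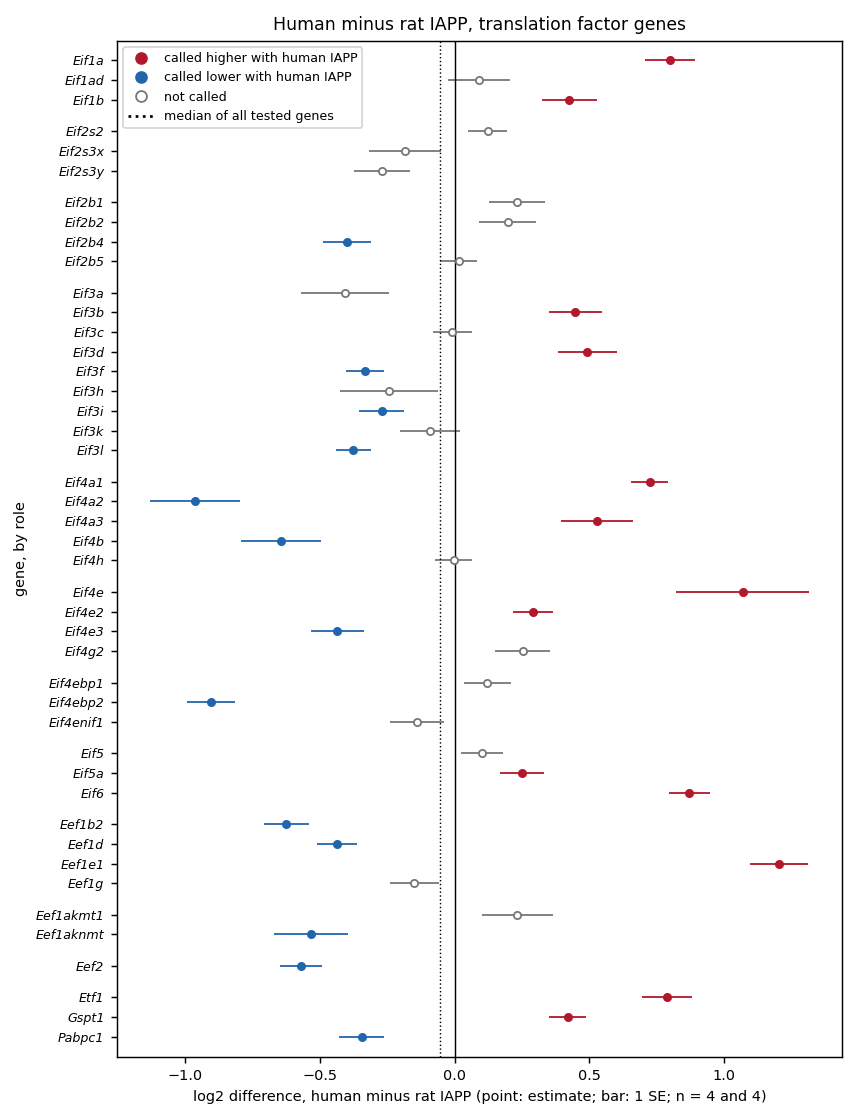
Points are log2 differences, human minus rat IAPP (n = 4 and 4), for the 44 tested genes in order of role, bars are 1 SE, filled red points rose, filled blue points fell and open points did not pass the test. The dotted line is the median of all tested genes, -0.06; members lie on both sides of it, out to 1.21 for Eef1e1 and -0.96 for Eif4a2.

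Among the factors that open the small subunit and scan for the start codon, eIF1A and the eIF1 paralogue rose. Eif1a, which encodes eIF1A, a factor of scanning and start-site choice, read 12.61, 12.64, 12.68 and 12.73 with human IAPP, against 11.89, 11.85, 12.06 and 11.66 with rat IAPP. The groups did not overlap, and the difference was 0.80 (SE 0.093, 1.74-fold, adjusted p = 8.4e-05). Eif1b, a close paralogue of eIF1, read 12.67 to 12.80 with human IAPP and 12.02 to 12.46 with rat IAPP, a difference of 0.43 (SE 0.102, adjusted p = 0.0060). Eif1ad differed by 0.09 and did not pass the test (adjusted p = 0.53). Eif1ax was undetected on all arrays.

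Of the 7 tested genes of eIF2 and eIF2B, the tRNA carrier and the exchange factor that recycles it, 1 passed. Over all tested genes 55.4% passed. The alpha subunit gene Eif2s1 was not analysed here. Eif2s2, the beta subunit, differed by 0.12 (adjusted p = 0.18). The gamma subunit copies, the X-linked Eif2s3x and the Y-linked Eif2s3y, had differences of -0.18 and -0.27 (adjusted p = 0.27 and 0.051). Both gamma copies passed the test without rat IAPP replicate 4, at -0.32 and -0.36, and against that array alone Eif2s3x differed by 0.22. Eif2b5, the catalytic subunit of eIF2B, read 11.67, 11.69, 11.68 and 11.63 with human IAPP, against 11.62, 11.74, 11.60 and 11.65 with rat IAPP. The groups overlapped throughout, with a difference of 0.02 (SE 0.068, adjusted p = 0.86). Eif2b4, the delta subunit, was the member that fell, by 0.40 on the log2 scale (SE 0.089, 1.32-fold lower, adjusted p = 0.0040). Eif2b1 and Eif2b2, the alpha and beta subunits, differed by 0.23 and 0.20 and did not pass with all arrays (adjusted p = 0.087 and 0.14) but passed without rat IAPP replicate 4, at 0.31 and 0.30.

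Of 9 tested subunits of eIF3, the large scaffold of the initiation complex, 2 rose, 3 fell and 4 did not pass. That is 22.2% risen and 33.3% fallen, near the 23.4% and 32.0% of all tested genes. Eif3d, a subunit that can itself bind the cap of some mRNAs, read 13.65, 13.66, 13.56 and 13.77 with human IAPP, against 12.95, 13.24, 13.04 and 13.42 with rat IAPP. Every human IAPP array was above every rat IAPP array, by 0.49 on average (SE 0.110, 1.41-fold, adjusted p = 0.0041). Eif3b, a core subunit, was higher by 0.45 (SE 0.097, adjusted p = 0.0035). Eif3f, Eif3i and Eif3l, further subunits, fell. Eif3f read 14.84 to 14.96 with human IAPP and 15.16 to 15.34 with rat IAPP, a difference of -0.33 (SE 0.071, adjusted p = 0.0034). Eif3l was lower by 0.38 on average (difference -0.38, SE 0.065, adjusted p = 9.4e-04), with all 4 human IAPP arrays at 13.28 to 13.34 and all 4 rat IAPP arrays at 13.64 to 13.74. Eif3i fell by 0.27 (SE 0.083, adjusted p = 0.020), but its difference was 0.07 in the authors' rescaled values, where it did not pass. It kept its call and direction in 9 of 18 alternatives, and 1 of its 3 probes did not pass.

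Eif3a, the largest eIF3 subunit, shows how much rests on rat IAPP replicate 4. It read 11.47, 11.47, 11.34 and 11.35 with human IAPP, against 12.10, 11.85, 12.04 and 11.28 with rat IAPP. Replicates 1 to 3 of rat IAPP lay above all human IAPP arrays and replicate 4 lay below all of them. The difference was -0.41 with all arrays (SE 0.165, adjusted p = 0.061), -0.59 without that array (adjusted p = 5.0e-04) and 0.13 against that array alone. Eif3c, Eif3h and Eif3k differed by -0.01, -0.24 and -0.09 and did not pass, and Eif3h was among the dimmest members at 6.91 to 7.67 with human IAPP and 7.29 to 7.89 with rat IAPP. Eif3e and Eif3m were undetected on all arrays, and Eif3j1 was detected on 3 rat IAPP arrays only.

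Of the helicase paralogues Eif4a1 rose and Eif4a2 fell. Both encode RNA helicases of the cap-binding complex that are close in sequence, and whether a probe of one also takes up the other's RNA was not tested. Eif4a1 read 15.45, 15.49, 15.38 and 15.49 with human IAPP, against 14.72, 14.67, 14.70 and 14.81 with rat IAPP. It was higher on all human IAPP arrays, by 0.72 (SE 0.069, 1.65-fold, adjusted p = 2.5e-05), and its other probe differed by 1.16. Eif4a2 read 12.54, 12.48, 12.44 and 12.40 with human IAPP, against 13.71, 13.42, 13.70 and 12.89 with rat IAPP. It was lower on all human IAPP arrays (difference -0.96, SE 0.167, 1.95-fold lower, adjusted p = 9.7e-04), and its other probe differed by -0.77. The rat IAPP arrays spread widely, since replicate 4 lay nearest the human IAPP arrays: the difference was -1.14 without it and -0.43 against it alone.

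Subtracting Eif4a2 from Eif4a1 within each array removes what is common to an array, although the level of one probe cannot be set against that of another. This quantity was 2.99 ± 0.08 with human IAPP and 1.30 ± 0.43 with rat IAPP (SD, n = 4 each). The 4 human IAPP values lay at 2.91 to 3.08, above rat IAPP values of 1.00 to 1.92. The difference of 1.69 had an exact two-sided permutation p of 0.0286, the smallest that the 70 splits of 8 arrays allow, and 0.0429 after adjustment over the 3 paralogue pairs compared. Every human IAPP array was above every rat IAPP array for Eif4a1 and below it for Eif4a2. The permutation p could therefore not be larger, and it restates those calls without adding to them.

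The other helicase partners did not share one direction. Eif4a3, a relative that sits in the exon junction complex and not in the cap-binding complex, read 12.01, 12.05, 11.92 and 11.99 with human IAPP, against 11.37, 11.38, 11.23 and 11.88 with rat IAPP. It rose by 0.53 (SE 0.132, 1.44-fold, adjusted p = 0.0075), with 0.67 without rat IAPP replicate 4 and 0.11 against that array alone. Eif4b, which stimulates the helicase, read 9.39, 9.46, 9.68 and 9.66 with human IAPP, against 10.54, 10.23, 10.21 and 9.79 with rat IAPP. It fell without overlap of the groups (difference -0.64, SE 0.150, 1.56-fold lower, adjusted p = 0.0052). The difference was -0.78 without rat IAPP replicate 4, and -0.24 against that array alone, where it did not pass. Eif4h, a further helicase stimulator, was level at 14.16 to 14.22 with human IAPP and 14.12 to 14.24 with rat IAPP (adjusted p = 0.97).

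Of the cap-binding proteins, Eif4e and Eif4e2 rose and Eif4e3 fell. Eif4e, the rate-setting cap-binding protein, read 7.03, 8.09, 7.98 and 8.30 with human IAPP, against 6.97, 6.49, 6.85 and 6.81 with rat IAPP. All human IAPP arrays were higher, but replicate 1 of that group lay close to the rat IAPP arrays, and the probe was one of the dimmest of the members. The difference was 1.07 (SE 0.247, the largest SE of any member, 2.10-fold, adjusted p = 0.0050). It was 0.39 without background correction and 0.37 in the authors' rescaled values, and passed in both. Eif4e2, also called 4EHP, a cap-binding protein that represses translation, differed by 0.29 (SE 0.073, adjusted p = 0.0077), with 0.46 and 1.01 at its other probes and -0.01 under median scaling. Eif4e3, a further family member, read 11.13, 10.97, 11.01 and 10.81 with human IAPP, against 11.52, 11.37, 11.53 and 11.24 with rat IAPP. It was lower on every human IAPP array (difference -0.44, SE 0.098, 1.35-fold lower, adjusted p = 0.0044).

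Eif4g2, a scaffold that lacks the eIF4E-binding site, read 11.26 to 11.54 with human IAPP and 10.89 to 11.23 with rat IAPP. The groups did not overlap, yet the difference of 0.25 did not pass the test (adjusted p = 0.060). Eif4g1 and Eif4g3 were not analysed here, so the main scaffold of the cap-binding complex is missing from these results. Set against Eif4e2 within each array, Eif4e was higher by 0.78 with human IAPP than with rat IAPP, which did not pass the exact permutation test (p = 0.114).

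Of the inhibitors of eIF4E, Eif4ebp2 fell and Eif4ebp1 did not pass the test. Eif4ebp2 read 9.70, 9.71, 9.72 and 9.53 with human IAPP, against 10.76, 10.52, 10.53 and 10.46 with rat IAPP. The groups were well apart (difference -0.91, SE 0.088, 1.87-fold lower, adjusted p = 2.8e-05). Eif4ebp1, the better known inhibitor, read 13.47, 13.34, 13.40 and 13.45 with human IAPP, against 13.41, 13.09, 13.29 and 13.38 with rat IAPP. These groups overlapped, with a difference of 0.12 (adjusted p = 0.27). Eif4ebp1 minus Eif4ebp2 within each array was 3.75 ± 0.13 with human IAPP and 2.72 ± 0.15 with rat IAPP (SD, n = 4 each). The difference of 1.03 again reached the smallest exact permutation p of 0.0286, or 0.0429 after adjustment over the 3 pairs. The gap between the groups at Eif4ebp2 was wider than the full range of Eif4ebp1, so this p too was fixed by the fall of Eif4ebp2. Eif4enif1, which carries eIF4E into the nucleus, differed by -0.14 (adjusted p = 0.26), and by -0.23 without rat IAPP replicate 4 (adjusted p = 0.024). Eif4ebp3 was undetected on all arrays.

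**Figure D3:**
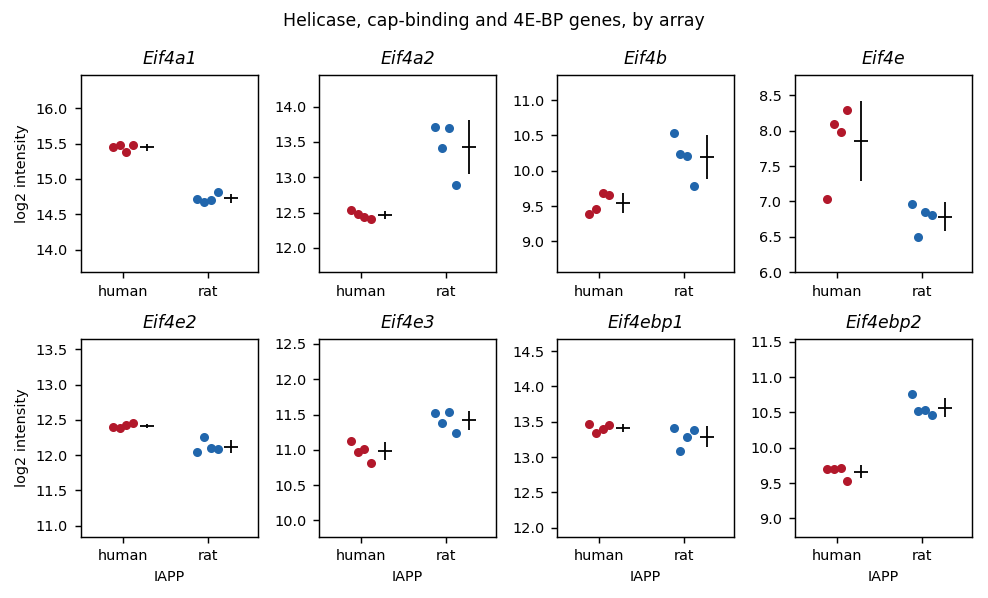
Log2 intensity on each array for 8 genes of the helicase, the cap-binding proteins and their inhibitors, with human IAPP on the left of each panel in red and rat IAPP on the right in blue (n = 4 each); the cross beside the points is the mean and the vertical bar 1 SD. All panels span the same number of log2 units, so the gap between groups can be compared: Eif4a1 and Eif4a2 separate in opposite directions, and for Eif4a2 and Eif4b the lowest rat IAPP point is replicate 4.

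Of the factors that act around subunit joining and after it, Eif6 and Eif5a rose. Eif6, which keeps the large ribosomal subunit from joining early and is needed for making it, read 13.71, 13.73, 13.74 and 13.66 with human IAPP, against 12.80, 12.88, 12.71 and 12.95 with rat IAPP. The difference was 0.87 (SE 0.076, 1.83-fold, adjusted p = 1.5e-05), the smallest adjusted p of the members. Eif5a, the hypusine-bearing factor that helps ribosomes past difficult peptide bonds, read 12.89, 12.71, 12.90 and 12.9995 with human IAPP, against 12.60, 12.60, 12.68 and 12.61 with rat IAPP. It was higher by 0.25 (SE 0.080, adjusted p = 0.025), the call with the largest adjusted p, its difference was -0.02 under median scaling, and 9 of 18 alternatives kept the call. Eif5, which triggers GTP hydrolysis on eIF2, differed by 0.10 (adjusted p = 0.30) at its brightest probe, while 1 of its 3 probes rose (difference 0.35, adjusted p = 0.0090). Eif5b and Eif5a2 were undetected.

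Of the eEF1 group, the exchange-factor subunits Eef1b2 and Eef1d fell, Eef1g did not pass and Eef1e1 rose. Eef1e1 bears an elongation factor name but encodes an accessory protein of the multi-tRNA synthetase complex, also called AIMP3. It read 10.96, 11.15, 11.32 and 11.14 with human IAPP, against 10.13, 9.89, 10.01 and 9.73 with rat IAPP. All human IAPP arrays were higher, and the difference of 1.21 (SE 0.109, 2.31-fold, adjusted p = 1.8e-05) was the largest of the 44 members. Eef1b2, the exchange-factor subunit that recharges eEF1A with GTP, read 13.16, 13.16, 13.08 and 13.05 with human IAPP, against 13.88, 13.78, 13.71 and 13.57 with rat IAPP. It fell in all wells (difference -0.63, SE 0.084, 1.54-fold lower, adjusted p = 2.1e-04), and 1 of its 3 probes did not pass.

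Eef1d, the delta exchange-factor subunit, read 12.78, 12.71, 12.70 and 12.67 with human IAPP, against 13.26, 13.08, 13.20 and 13.08 with rat IAPP. It was lower throughout (difference -0.44, SE 0.074, 1.35-fold lower, adjusted p = 8.8e-04), although its other tested probe did not pass. Eef1g, the structural gamma subunit, differed by -0.15 and did not pass (adjusted p = 0.19). The probe for Eef1a1, the carrier of aminoacyl-tRNA and among the most abundant proteins of a cell, was undetected on all 8 arrays, so no level is given for it. Eef1a2, the muscle and neuron form, was undetected too.

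Of the enzymes that methylate eEF1A, Eef1aknmt read 8.25, 7.82, 7.79 and 7.91 with human IAPP, against 8.17, 8.55, 8.49 and 8.70 with rat IAPP. The groups overlapped at 1 array on each side, and the difference of -0.53 passed (SE 0.138, 1.45-fold lower, adjusted p = 0.0092). Its 2 other tested probes, at -0.02 and -0.37, did not pass. Eef1akmt1 differed by 0.23 and did not pass (adjusted p = 0.17), and it differed by 0.34 without rat IAPP replicate 4 (adjusted p = 0.028).

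Eef2, the translocase of elongation, fell at all 3 of its probes. The brightest read 12.91, 12.73, 12.82 and 12.89 with human IAPP, against 13.35, 13.34, 13.41 and 13.53 with rat IAPP. The groups were clear of each other (difference -0.57, SE 0.078, 1.48-fold lower, adjusted p = 2.4e-04), and rat IAPP replicate 4 was here the highest of its group.

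Both release factor genes rose and the poly(A)-binding protein fell. Etf1, which encodes eRF1, the protein that reads the stop codon, read 13.11, 13.08, 13.16 and 13.07 with human IAPP, against 12.45, 12.34, 12.40 and 12.07 with rat IAPP. It was higher on every human IAPP array, by 0.79 (SE 0.093, 1.73-fold, adjusted p = 9.1e-05). Gspt1, which encodes its GTPase partner eRF3a, read 14.17, 14.11, 14.14 and 14.17 with human IAPP, against 13.68, 13.71, 13.81 and 13.70 with rat IAPP. It was higher by 0.42 (SE 0.067, 1.34-fold, adjusted p = 6.2e-04). Pabpc1, the main cytosolic poly(A)-binding protein, read 13.23, 13.31, 13.19 and 13.25 with human IAPP, against 13.70, 13.70, 13.44 and 13.52 with rat IAPP. It fell without overlap (difference -0.34, SE 0.083, 1.27-fold lower, adjusted p = 0.0064), while its other probes did not pass.

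Of 20 genes with more than 1 tested probe, 17 had all probes on the same side of 0 and none had probes that passed the test in opposite directions. The 3 with probes of both signs were Eef1d, Eif3a and Eif4enif1.

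**Figure D4:**
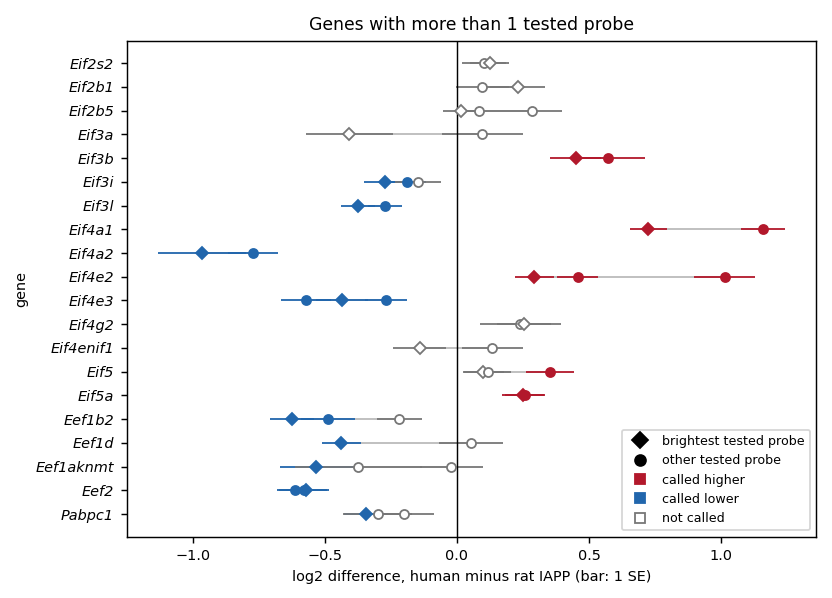
Log2 differences, human minus rat IAPP (n = 4 and 4), of every tested probe for the 20 genes that have more than 1, with bars of 1 SE; diamonds are the brightest probe used for the gene and circles the other probes, red passed the test as higher, blue as lower, and open symbols did not pass. Both Eif4a1 probes lie right of 0, at 0.72 and 1.16, and both Eif4a2 probes left of it, at -0.96 and -0.77.

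Of 10 factors known as products of TOP mRNAs 8 were tested, and 6 of them fell: Eef1b2, Eef1d, Eef2, Eif3f, Eif4b and Pabpc1. None rose, and Eef1g and Eif3h did not pass. Their median difference was -0.39. Of the 36 other tested members 13 rose and 7 fell, and their median was 0.12. Of all genes 23.4% rose and 32.0% fell. No list member rose under any alternative of processing or of arrays used, and 4 to 7 fell. The list was drawn up with earlier results of these data known and carries no test of its own. The mRNA amount is what was measured, whereas TOP control acts on translation.

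The regulators around these factors were read from lists of other genes. Of the eIF2 kinases, the eIF2 phosphatase subunits and the eEF2 kinase, 6 were tested, 3 rose and 3 fell. Over all tested genes 23.4% rose and 32.0% fell. Ppp1r15a, also called GADD34, the inducible subunit that directs removal of the phosphate from eIF2, read 11.85, 11.94, 11.96 and 11.84 with human IAPP, against 9.98, 9.72, 9.77 and 9.80 with rat IAPP. It was higher by 2.08 (SE 0.081, 4.23-fold, adjusted p = 1.0e-07). Eif2ak3, also called PERK, the eIF2 kinase of the endoplasmic reticulum, fell (difference -1.23, SE 0.110, 2.35-fold lower, adjusted p = 1.6e-05). Eef2k, which inhibits eEF2, was undetected on all 4 human IAPP arrays and detected on all 4 rat IAPP arrays. It entered the test through the rat IAPP arrays alone, a way of entry that favours a fall, and it is 1 of the 3 that fell. For Eef2k 13 alternatives gave a value. The measured means, undetected on the human IAPP side, differed by -1.76. Set against the dimmest detected signal of each human IAPP array, Eef2k was at least 2.15-fold lower with human IAPP, a bound not itself tested. That bound holds for the background correction used: the measured difference was -0.48 without correction and -0.43 in the authors' rescaled values. Named after their values were seen, to complete the counts, Eif2ak2 (PKR) and Ppp1r15b rose by 0.76 and 0.51, and Eif2ak1 (HRI) fell (difference -0.67).

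Of 13 tested genes of mTORC1 and MNK control 1 rose, 6 fell and 6 did not pass, with a median of -0.24. The share called, 7 of 13, is near the 55.4% of all tested genes, of which 23.4% rose and 32.0% fell. Sesn1, a sestrin that restrains mTORC1 when amino acids are short, read 10.14, 9.58, 9.60 and 9.17 with human IAPP, against 11.88, 12.08, 11.94 and 11.98 with rat IAPP. It was 5.07-fold lower (difference -2.34, SE 0.175, adjusted p = 5.2e-06). Deptor, an inhibitor bound to mTOR, was 4.83-fold lower (difference -2.27, SE 0.162, adjusted p = 3.9e-06), with differences of -1.10 without background correction and -1.01 in the authors' rescaled values. Mlst8, a shared mTOR complex subunit, was 1.43-fold lower (difference -0.52). Tsc1, named after its value was seen, was the gene that rose, by 0.47. The genes that fell on this list include brakes of mTORC1 as well as a subunit of it. The gene that rose, Tsc1, encodes a brake of mTORC1 too.

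Of 13 other cytosolic factors 2 rose, 2 fell and 9 did not pass. Over all tested genes 55.4% passed, a larger share than in this list or in the lists that follow in this paragraph. Denr, a recycling and reinitiation factor, rose by 0.98 (SE 0.107, 1.98-fold, adjusted p = 5.7e-05). Abcf1 rose by 0.19 at its brightest probe, and its other probes, at 0.36 and 0.33, passed too. Paip2, an inhibitor of the poly(A)-binding protein, fell (difference -0.67, SE 0.139, 1.59-fold lower, adjusted p = 0.0027), as did Gspt2, the second eRF3 gene, named after its value was seen (difference -0.28, adjusted p = 0.0495). Of 2 tested genes that modify eIF5A or eEF2, Dph2, of diphthamide synthesis on eEF2, rose by 0.40. Of 8 mitochondrial translation factors Gfm1, a mitochondrial elongation factor, rose by 0.33, Tufm, another, fell (difference -0.20, adjusted p = 0.045), and 6 did not pass; Abcf1, Dph2 and Gfm1 were below 0 under median scaling. Several of these calls lay near the threshold: of 18 alternatives 6 kept that of Tufm, 7 that of Gspt2, 8 that of Abcf1, 9 that of Gfm1, 11 that of Ppp1r15b and 14 that of Tsc1. Tufm, Gspt2 and Gfm1 were among those that no longer passed without rat IAPP replicate 4.

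Under 18 alternative ways of processing, 9 of the 26 called members kept their call and direction each time: Eef1e1, Eif4a1 and Eif6 as higher, and Eef1aknmt, Eef1b2, Eef1d, Eef2, Eif4a2 and Eif4ebp2 as lower. Without rat IAPP replicate 4 all 26 kept call and direction and 33 were called (75.0%, against 60.3% of all genes), 16 as higher and 17 as lower. Against rat IAPP replicate 4 alone Eif2b4, Eif3b, Eif3d, Eif3i, Eif4a3, Eif4b, Eif4e, Eif4e3, Eif5a and Pabpc1 no longer passed. Under median scaling, which moved the median of all genes by -0.35, Eif1a, Eif1b, Eif3b, Eif3d, Eif3i, Eif4a3, Etf1 and Gspt1 did not pass, Eif4e2 and Eif5a lost the call and changed sign, and 21.1% of the called members were higher where the main processing had 50%.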

How the data were processed

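Expression was measured on 1-colour Illumina bead arrays in 4 wells with human IAPP and 4 with rat IAPP. The authors deposited 1 intensity per probe and array with no background taken off, and a detection p-value, per the file headers and the values. A second deposited table holds intensity rescaled along a straight line per array, on a linear scale and not centred, by a method not given in the sources used here; its medians were 361.8, 362.9, 359.2 and 367.7 for human IAPP and 352.6, 356.6, 353.8 and 361.1 for rat IAPP, and it served as an alternative.

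Background was corrected by limma's normexp model (version 3.58.1, R 4.3.3, offset 16), whose negative control distribution was rebuilt from the deposited p-values. Quantile normalisation and log2 followed. A probe entered the test if 4 or more of the 8 arrays detected it at p under 0.05, as did 11451 of 25697, with lmFit and eBayes, human minus rat, adjusted over all tested probes. The platform table gave 1 symbol for 23978 probes, several for 0, and did not list 1719. A gene was read by its brightest tested probe. Probe sequences were not used here, so signals of near-identical paralogues, such as Eif4a1 and Eif4a2 or Eif2s3x and Eif2s3y, cannot be separated further. Paralogue pairs were compared by exact two-sided permutation. Of 5 planned pairs, the 2 that need Eif4g1 were not analysed here.

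The fitting step was tested on simulated data. No 2 arrays were identical. Replicate numbers are shared by the groups, and the deviations of same-numbered arrays correlated at -0.11, -0.01, 0.17 and -0.02. These values give no clear sign that the numbers pair the arrays, but they cannot exclude it. No slide or scan time was used here. Per-array values are given for the 8 members with the largest rise, the 8 with the largest fall and a fixed list of further members. In other lists the called genes with the 3 smallest p are named. Among these, outside the members, only Ppp1r15a and Sesn1 have per-array values. The members, lists and this rule were chosen with earlier results of these data known. Alternatives changed the background correction, scaling, filter, variance model and replicate block, left out each array, and, added after seeing the data, set human IAPP against rat IAPP replicate 4 alone. The number of arrays limits the precision: the SE of a member's difference was 0.065 to 0.247.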

Additional observations from a re-analysis of the deposited data

Results flagged for a closer look

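Of 122 combinations of a gene and a group examined for 1 array far from the other 3, 5 were set apart by Dixon's criterion, near the 1 in 20 that chance flags. Eif4ebp2 read 9.53 on human IAPP replicate 4, below 9.70 to 9.72 on the other human IAPP arrays. Eif2b4 read 11.09 on rat IAPP replicate 1, above 10.83 to 10.86 on the others of its group. Eif4g2 read 10.89 on rat IAPP replicate 4, below 11.19 to 11.23. Eif2ak3 read 8.71 on human IAPP replicate 2, above 8.45 to 8.48, and 9.48 on rat IAPP replicate 4, below 9.82 to 9.88. The part of single arrays in these values was not tested.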

How the results depend on the processing

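Median scaling shifted all genes by -0.35: 6 member probes and 4 member genes were higher, with a member median of -0.32. In the authors' rescaled values 30 probes and 21 genes were higher, with a median of 0.16. The main processing gave 19, 13 and 0.01. Among all called genes 42.3% were higher in the main processing, 14.1% under median scaling and 53.5% in the authors' values, and among called members 50%, 21.1% and 70%. Differences that changed sign under median scaling were Eef1akmt1 -0.20, Eif1ad -0.36, Eif2b1 -0.19, Eif2b2 -0.23, Eif2b5 -0.34, Eif2s2 -0.26, Eif4e2 -0.014, Eif4ebp1 -0.13, Eif4g2 -0.13, Eif5 -0.13, Eif5a -0.024, Abcf1 -0.16, Dph2 -0.014 and Gfm1 -0.11. Those under cyclic loess were Eif3c 0.038 and Eif4h 0.067. Those in the authors' values were Eef1g 0.19, Eif3c 0.10, Eif3i 0.070, Eif3k 0.022 and Eif4h 0.30 (adjusted p = 0.0015). In those values Eif3f, Eif3l and Pabpc1 no longer passed. Against rat IAPP replicate 4 alone 12 member probes were lower, against 21 with all arrays, and the signs changed for Eef1akmt1 -0.087, Eif1ad -0.20, Eif2b1 -0.0023, Eif2b2 -0.11, Eif2s3x 0.22, Eif3a 0.13, Eif3c 0.083 and Eif4enif1 0.12. The lone array is assumed there to vary like the others. The cause was not tested for any of these.

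Leaving out 1 array at a time gave 12 to 16 member genes higher and 12 to 17 lower. Eif3c then lay at -0.039 to 0.015, Eif4h at -0.030 to 0.012 and Eif2b5 at -0.0016 to 0.044. The paralogue difference of Eif4e and Eif4e2 lay at 0.63 to 1.06, and without human IAPP replicate 1 it was 1.06 (adjusted exact permutation p = 0.0286). That p is the smallest possible with 1 array left out. The array left out, at -5.37, was the one that lay among the rat IAPP values of -5.76 to -5.07. In the authors' values this paralogue difference was -0.077 (adjusted exact permutation p = 0.54). With the replicate number as a block 25 member genes were called, and the Eif4a1 and Eif4ebp1 pairs stood at 1.69 and 1.03 with an adjusted exact permutation p of 0.19, since 16 sign changes cannot go below 0.125. The groups share only a number, so the block is a hint at most. Dim probes limit Eif4e and Eif3h, and the undetected Eef1a1 probe gives no value.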
